A study of Mus musculus with 34 samples.

Results

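The 10 genes for receptor chains through which mast cells (MCs) can sense alarmins and type 2 and regulatory cytokines were followed across the single-cell transcriptomes of ear skin: Il1rl1, Il1rap, Il18r1, Il18rap, Il4ra, Il13ra1, Il10ra, Il10rb, Crlf2 and Il7r. They were chosen by name, as 10 of the 20213 genes listed outside predicted genes named Gm plus a number. MCs were sorted as CD45+Lin−YFP+ cells from 7-week-old male C57BL/6J mice that all carried Mcpt5-Cre+/− and the R26LSLYFP reporter, untreated and, for the floxed line and its crosses, on an albino Tyr c-2J background. WT mice had Tln1+/+ alleles, and Tln1ΔMC mice were Tln1fl/fl, so that talin-1, which couples integrins to actin, was deleted in MCs. Mcpt5-Cre acts in connective tissue MCs, and the YFP gate therefore holds only cells in which Cre had acted. CD45−GFP+ cells of Myh11GFP/+ ear skin, a sort for vascular smooth muscle cells and pericytes, came from a number of mice that is not given and were taken as 1 sample.

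The receptors work as pairs. IL-33, an alarmin released by damaged barrier cells, binds ST2 (encoded by Il1rl1), which recruits the accessory chain encoded by Il1rap and signals through MyD88, and IL-18 uses the related pair of Il18r1 and Il18rap. IL-4 and IL-13 share the chain encoded by Il4ra, which pairs with the common gamma chain Il2rg for IL-4 alone or with Il13ra1 for both cytokines, and signals through STAT6. IL-10 binds Il10ra together with Il10rb, whereas TSLP binds Crlf2 together with Il7r, whose product also forms the IL-7 receptor with Il2rg.

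Each captured RNA molecule was counted once near its 3′ end through a unique molecular identifier (UMI), so that levels of different genes can be compared without a correction for transcript length. A level is given as transcripts per 10000 transcripts outside Gm genes, which held between 14.2% and 58.0% of the transcripts of a mouse. There were 902 cells of 3 WT mice and 1566 cells of 3 Tln1ΔMC mice, with 699401 to 5231500 transcripts outside Gm genes per mouse, and 322 Myh11-GFP cells with 1426770 such transcripts. Tln1ΔMC mouse 3 had 10 libraries and each other sample 4. The MC markers Cpa3, Cma1, Mcpt4, Tpsb2, Kit, Ms4a2, Hdc, Fcer1a and Gata2 together reached 633 to 866 per 10000 in the 6 mice and 0.196 in Myh11-GFP cells, in which 5 of the 9 were at 0. Smooth muscle markers reached 76.9 and pericyte markers 122 per 10000 in Myh11-GFP cells, but fibroblast markers were also high there (253). Of the 2468 MCs, 62 had at least 1% of their transcripts from macrophage, keratinocyte or fibroblast markers, and 1 cell of Tln1ΔMC mouse 3 alone held 399798 transcripts, 7.64% of that mouse. Tln1 itself was at 4.51, 5.93 and 6.71 per 10000 in WT mice and 5.57, 4.34 and 3.63 in Tln1ΔMC mice, with a log2 fold change of -0.31 ± 0.25 (SE, adjusted p = 0.872, limma), but a count near the 3′ end does not check a deletion elsewhere in the gene.

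Upstream sequences are shown for Il1rl1 and Il13ra1, the member with the highest level in MCs and the 1 member that was lower in all 6 MC mice than in Myh11-GFP cells. Il1rl1 lies on chromosome 1 of GRCm38 from 40429570 to 40465415, and Il18r1 (40465552 to 40500854) and Il18rap (40515362 to 40551705) follow on the same strand, Il18r1 only 136 bases beyond the end of Il1rl1. Il13ra1 lies on chromosome X from 36112110 to 36171259. The RefSeq table for GRCm38.p6 matched 8 of the 10 members and not Il10ra or Il10rb. It lists a pair of starts for Il1rl1, 10059 bases apart. The 250 bases before each start are printed 5′ to 3′ on the plus strand, with GATAA or its reverse complement TTATC, letters that GATA factors such as Gata2 recognise, in capitals. No other motif was searched.
Il1rl1, distal start, chr1:40429320-40429569: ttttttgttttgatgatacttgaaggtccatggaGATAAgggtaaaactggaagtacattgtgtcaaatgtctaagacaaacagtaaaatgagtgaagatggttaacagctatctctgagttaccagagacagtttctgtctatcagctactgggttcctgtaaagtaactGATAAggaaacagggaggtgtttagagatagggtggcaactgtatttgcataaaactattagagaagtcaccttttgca
Il1rl1, proximal start, chr1:40439379-40439628: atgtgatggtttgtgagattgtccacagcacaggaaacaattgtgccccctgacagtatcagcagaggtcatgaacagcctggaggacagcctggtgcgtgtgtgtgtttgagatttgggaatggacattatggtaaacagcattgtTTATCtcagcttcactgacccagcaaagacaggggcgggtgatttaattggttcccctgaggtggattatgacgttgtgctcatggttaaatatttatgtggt
Il13ra1, chrX:36111858-36112107: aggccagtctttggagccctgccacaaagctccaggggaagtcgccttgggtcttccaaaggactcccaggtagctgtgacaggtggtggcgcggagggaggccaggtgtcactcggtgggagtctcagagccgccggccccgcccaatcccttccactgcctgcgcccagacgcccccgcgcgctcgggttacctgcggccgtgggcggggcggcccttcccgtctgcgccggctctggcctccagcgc
The distal Il1rl1 window held 2 matches, the proximal one 1 and the Il13ra1 window none. The proximal window lies inside the Il1rl1 gene and overlaps an annotated Il1rl1 exon, whereas the distal and the Il13ra1 windows overlap no annotated gene. Of 32851 windows of this length before all listed starts, 22.6% held at least 1 match and 4.28% at least 2. Among the 11 windows of the 8 matched members, 3 held a match, both of Il1rl1 and the one of Il18rap. These letters are a description of the windows only. Because counting is near the 3′ end, and 5 protein-coding Il1rl1 transcripts in GENCODE M21 end at 5 different positions, the level of Il1rl1 sums its starts and its forms, the membrane-bound and the soluble one included.

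Il1rl1 was by far the highest member in MCs, and Il18r1, the gene next to it, was nearly silent. Over the 6 mice the level of Il1rl1 was 8.71 ± 2.68 per 10000 (SD, n = 6), which placed it at rank 120 of 19910 genes listed in MCs. In bulk sums of this kind, fewer cells with a transcript and less RNA per cell cannot be told apart. Il10ra followed with 2.09 ± 0.315, and both steps of this order were seen in 6 of 6 mice without overlap of the ranges. Il10rb (1.26 ± 0.120), Il7r (1.09 ± 0.186), Il4ra (0.909 ± 0.161), Crlf2 (0.682 ± 0.114) and Il1rap (0.647 ± 0.0926) lay close together. The ranges of neighbours in this group overlapped, and the order of each neighbouring pair held in 4 or 5 mice. Il13ra1 (0.0474 ± 0.0603), Il18r1 (0.0243 ± 0.0234) and Il18rap (0.00972 ± 0.0104) were far lower, and neighbours among these 3 kept their order in 3 mice. Hence RNA for both chains for IL-33, IL-10 and TSLP and for the shared chain for IL-4 and IL-13 was counted in MCs. RNA for the second chain for IL-13 and for both chains for IL-18 was at or near 0. These counts do not show protein, and that of Il1rl1 includes the soluble form.

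**Figure D1:**
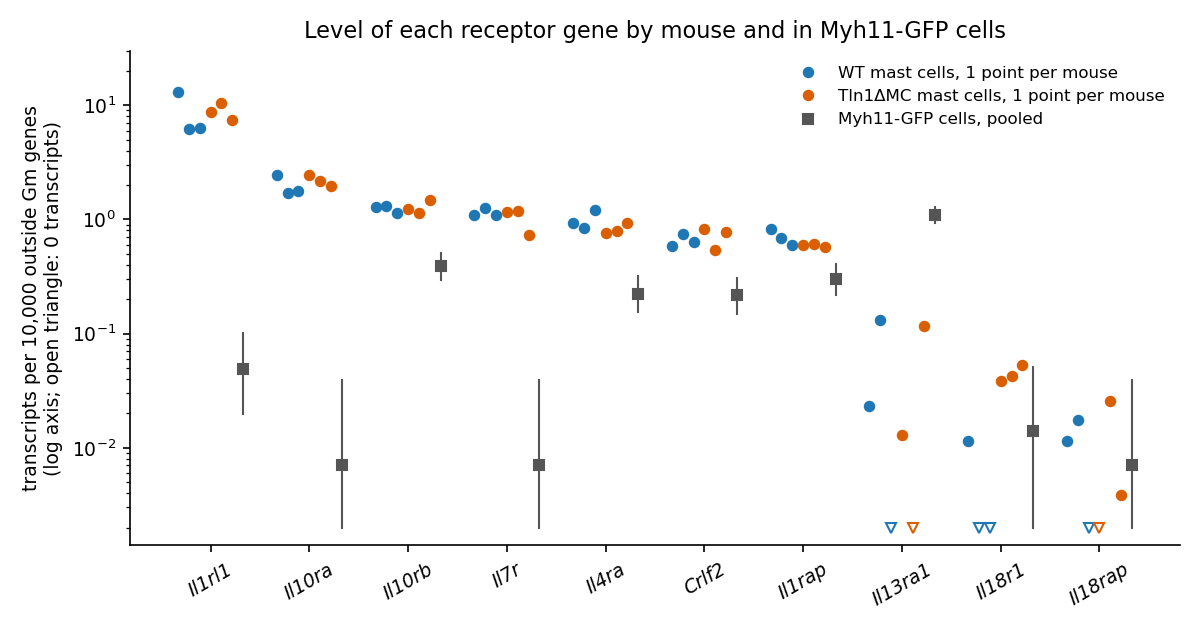
Level of each member per 10000 transcripts outside Gm genes on a log axis, with 1 point per mouse for WT and Tln1ΔMC MCs and a square with its exact 95% Poisson interval for the pooled Myh11-GFP cells (intervals that reach below the axis are cut at its lower end). The 7 members from Il1rl1 to Il1rap lie above the square in all 6 mice and Il13ra1 lies below it, and open triangles mark mice with 0 transcripts.

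Among the members, 7 were higher in MCs of all 6 mice than in Myh11-GFP cells, and 1, Il13ra1, was lower in all 6. Among the 9138 genes that reached 10 transcripts in 3 or more of the 7 samples, 35.1% lay above the Myh11-GFP level in all 6 mice and 24.8% below it in all 6. As 6 of these 7 samples are MC mice, no gene could reach this minimum in Myh11-GFP cells alone, and the filter favours genes high in MCs. Il1rl1, Il10ra and Il7r reached 10 transcripts only in MC mice, with 7, 1 and 1 transcripts in Myh11-GFP cells. Of the 10 members 8 reached this minimum, without Il18r1 and Il18rap, and Il13ra1 reached it in MCs only in WT mouse 2 and Tln1ΔMC mouse 3, in each of which 1 deep cell held most of its transcripts. With 1 Myh11-GFP sample, with a background of its own in unused barcodes, no test was made, and cell type and sequencing set cannot be told apart. The intervals below cover counting error only. Those of ratios between MCs and Myh11-GFP cells take the MC mean as fixed and leave out its spread over mice.

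The ratios were largest for Il10ra, Il1rl1 and Il7r. Il1rl1 was at 13.1, 6.21 and 6.32 per 10000 in WT mice 1, 2 and 3 and at 8.69, 10.5 and 7.48 in Tln1ΔMC mice 1, 2 and 3. In Myh11-GFP cells its level was 0.0491 (95% Poisson interval 0.0197 to 0.101), so that the MC mean was 178-fold higher (86.2 to 442). All 6 mice lay far above that interval. Il10ra was at 2.44, 1.72 and 1.77 in WT and 2.44, 2.17 and 1.98 in Tln1ΔMC mice, and Il7r at 1.10, 1.27 and 1.10 in WT and 1.17, 1.19 and 0.734 in Tln1ΔMC mice. In Myh11-GFP cells each of these genes had 1 transcript, a level of 0.00701 (0.000178 to 0.0391), which gives ratios of 298 (53.4 to 11747) for Il10ra and 156 (28.0 to 6155) for Il7r. Il10ra and Il7r were thus below the level of 0.0210 per 10000 that 3 transcripts set in Myh11-GFP cells.

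The ratios of Il4ra, Il10rb, Crlf2 and Il1rap were smaller. Il4ra was at 0.936, 0.838 and 1.20 in WT and 0.756, 0.791 and 0.933 in Tln1ΔMC mice, against 0.224 (0.153 to 0.317) in Myh11-GFP cells, a ratio of 4.05 (2.87 to 5.93). Il10rb, which also serves in receptors for IL-22 and interferon lambda, had a ratio of 3.22 (2.48 to 4.26). Crlf2 had a ratio of 3.14 (2.21 to 4.62) and Il1rap one of 2.15 (1.59 to 2.97). For each of these 4 genes the lowest mouse was above the upper bound of the Myh11-GFP interval. In the receptors for IL-33, IL-10 and TSLP, the chain with the wide gap (Il1rl1, Il10ra or Il7r) thus stood beside a partner (Il1rap, Il10rb or Crlf2) that was counted in both sorts.

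Il13ra1 showed the opposite distribution. It was at 1.09 per 10000 in Myh11-GFP cells (0.922 to 1.27, 155 transcripts in 106 of 322 cells), between 0.944 and 1.29 in the 4 libraries. In MCs it was at 0.0231, 0.131 and 0 in WT and 0.0128, 0 and 0.117 in Tln1ΔMC mice. The Myh11-GFP level was 22.9-fold the MC mean (19.5 to 26.8 from counting error in Myh11-GFP cells alone). The MC mean of 0.0474 had an SD of 0.0603 over the 6 mice, so the ratio is less certain than this interval. Of the 79.4 Il13ra1 transcripts of all MCs, 73.5% came from 1 cell, the one with 399798 transcripts, in which keratinocyte markers held 2.91% and MC markers 0.276% of transcripts. A WT cell with 88414 transcripts and 2.66% keratinocyte markers held 9.01 more. Only 13 of 2468 MCs had an Il13ra1 transcript, and 7 of these were among the 62 cells rich in markers of other cell types. The other 6 cells held 1 transcript each among 2406 MCs. Without the 4 MCs of over 50000 transcripts, a limit set after the data were seen, 12 transcripts were left, and the mean level fell from 0.0474 to 0.0165. The level of Tln1ΔMC mouse 3 was then 0.00633 in place of 0.117 and that of WT mouse 2 0.0567 in place of 0.131, still the highest of the 6. IL-13 itself ran the other way, since Il13 was at 4.31 ± 2.09 per 10000 (SD, n = 6) in MCs and at 0 transcripts in Myh11-GFP cells.

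**Figure D2:**
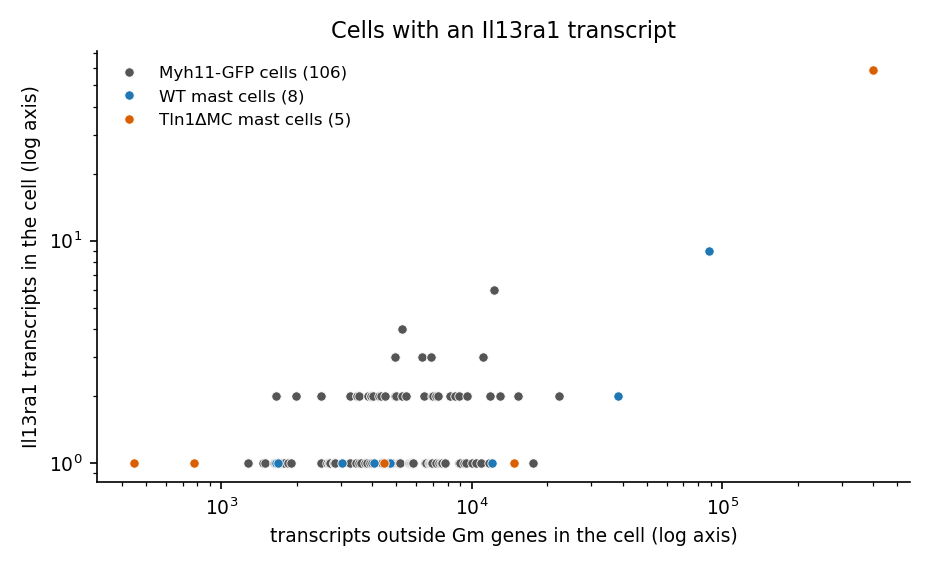
Every cell with an Il13ra1 transcript, by its transcripts outside Gm genes and its Il13ra1 transcripts, both on log axes. The 106 Myh11-GFP cells hold 1 to 6 transcripts at ordinary depth, whereas 13 MCs are shown, of which the deepest holds 58.4 and the next 9.01.

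Within the Myh11-GFP sort, Il13ra1 was found on both sides of the smooth muscle gradient. In cells above the median of Acta2, Myh11 and Tagln its level was 1.37 (1.11 to 1.69), and in the other cells 0.832 (0.639 to 1.06). Il10rb was arranged the other way, with 0.239 (0.137 to 0.388) above and 0.528 (0.377 to 0.719) at or below that median. Il10rb was at 0.583 (0.429 to 0.776) in the 177 cells with at least 1% fibroblast marker transcripts and at 0.145 (0.0663 to 0.275) in the other 145 cells, and Il13ra1 was at 0.881 (0.688 to 1.11) and 1.35 (1.08 to 1.68). The pericyte marker Rgs5 was at 114 in these 177 cells and 115 in the other 145, and Acta2 at 28.4 and 56.0. The 177 cells thus also carried mural markers. The intervals of Il13ra1 were apart in the first split and overlapped in the second, and those of Il10rb overlapped at their ends in the first and were apart in the second. Il1rap, Il4ra and Crlf2 had overlapping intervals in both splits. All 7 Il1rl1 transcripts of the sort lay in 4 cells at or below the median of the smooth muscle genes.

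The share of cells with a UMI was also counted. With each cell thinned to 1000 UMIs outside Gm genes, which left out 278 shallower MCs and 23 Myh11-GFP cells, Il1rl1 was found in 1022 of 2190 MCs (46.7%, exact 95% binomial interval 44.6 to 48.8%) and in 0 of 299 Myh11-GFP cells, which allows a share of up to 1.00% at this depth by the limit of 3 counts (exact upper bound 1.23%). The shares of the 6 mice ran from 32.4% to 56.1%. Without thinning, 70.8% of MCs had an Il1rl1 UMI and 1.24% of Myh11-GFP cells, at median depths of 3303 and 3949 UMIs. Il10ra was found in 19.0% of thinned MCs (17.4 to 20.7%), and not in Myh11-GFP cells. Il10rb was found in 12.4% of MCs and 3.01% of Myh11-GFP cells, Il7r in 9.04% and 0%, Il4ra in 8.58% and 2.01%, Crlf2 in 6.30% and 2.68%, and Il1rap in 5.89% and 3.34%. Il13ra1 was the reverse, with 0.137% of MCs and 10.7% of Myh11-GFP cells. Within an MC mouse, levels of Il1rl1 per cell were wide, for instance from 0 at the 10th percentile to 31.6 per 10000 at the 90th in WT mouse 1. A cell without a UMI is not shown to lack the gene at this depth.

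Cells with UMIs of both chains of a receptor were counted beside the number that the product of the shares gives. Il1rl1 and Il1rap were found together in 54 thinned MCs, against 60.0 from the product of the shares within each mouse. Il10ra and Il10rb were found together in 65 cells (51.6 from the product), and Il7r and Crlf2 in 13 (12.4). Il18r1 and Il18rap were found together in no MC, thinned or not. Il4ra and Il13ra1 were found together in no thinned MC and in 2 thinned Myh11-GFP cells (0.642). Without thinning the counts were 360 (346) for the IL-33 pair, 510 (419) for the IL-10 pair and 162 (125) for the TSLP pair, where deep cells have more UMIs of every gene. Il4ra and Il13ra1 were then found together in 5 MCs (3.16) and in 17 Myh11-GFP cells (7.90). These are counts of cells within 6 mice and were not tested.

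Transcripts of lymphoid or basophil markers were counted in the MCs that had a member. Of the 573 MCs with Il7r, a gene that T cells and innate lymphoid cells also use, 15.5% had a transcript of Cd3e, Cd3d, Cd3g, Trbc1 or Icos, against 13.2% of all MCs, and all 573 had one of Cpa3, Cma1, Mcpt4 or Tpsb2. Of the 1747 MCs with Il1rl1, 7.73% had a transcript of Siglecf, Ccr3 or Mcpt8, against 6.81% of all MCs. This share was 10.1% for Il7r and 0% for Il18r1 and Il18rap. A transcript of the lymphoid markers was found in 4 of 8 MCs with Il18rap, 5 of 13 with Il13ra1 and 2 of 28 with Il18r1. For the other members that share ran from 13.1% (Il1rl1) to 16.5% (Crlf2). These shares of cells were taken without thinning and were not matched for depth. Trbc2, Thy1 and Cd2 were not among the lymphoid markers used here. The 62 cells rich in other markers held 8.31% of all MC transcripts but 1.23% of those of Il1rl1, 1.39% of Il10ra and 2.04% of Il7r. Conversely they held 92.4% of the Il13ra1 and 21.6% of the Il18r1 transcripts of MCs, the latter from 1 cell with 8.01 transcripts.

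To ask whether loss of talin-1 changed receptor expression, transcripts were summed by mouse, and limma was applied to the 8597 genes that reached 10 transcripts in 3 or more mice, on log2(transcripts per 1000000 + 1), a scale that understates changes of low genes. No gene passed an adjusted p of 0.05 (0% of 8597), and 509 had an unadjusted p under 0.05. Of the members 7 were tested, 4 with a positive and 3 with a negative log2 fold change, and none had an unadjusted p under 0.05. Their adjusted p ran from 0.889 to 0.965, with standard errors of 0.18 to 0.28, and this number of mice limits the precision. The largest positive value was 0.20 ± 0.19 (SE) for Il10ra and the largest negative one -0.21 ± 0.21 for Il4ra. For Il1rl1 the value was 0.17 ± 0.28, and its 95% interval ran from -0.46 to 0.80. The intervals of the other 6 all held 0 and lay between -0.71 (Il7r) and 0.64 (Crlf2). Fibroblast markers were at 24.3 to 85.4 per 10000 in WT and 1.22 to 11.9 in Tln1ΔMC mice and macrophage markers at 2.38 to 42.2 and 1.47 to 7.91, and their part in these values was not tested. The median over the 7 members was 0.07, beside 0.00081 over all genes tested.

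**Figure D3:**
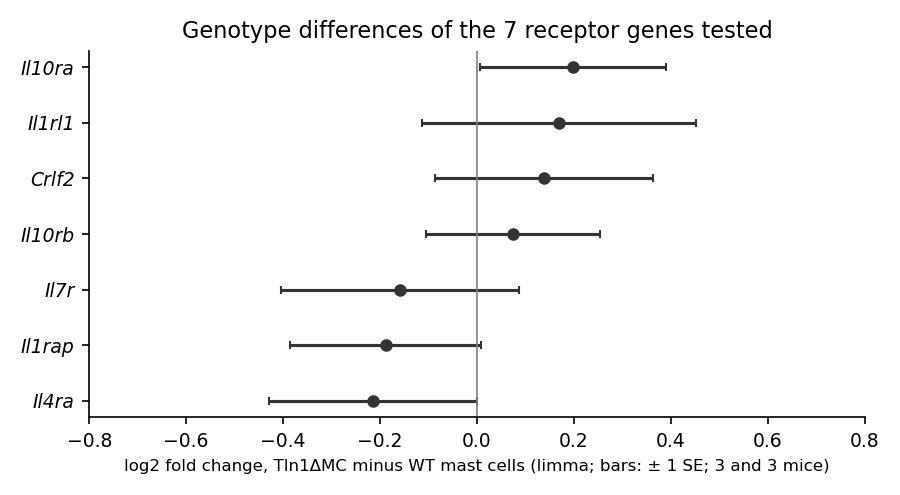
Log2 fold change of the 7 tested members in Tln1ΔMC minus WT MCs, with bars of 1 standard error from limma over 3 and 3 mice. All values lie between -0.21 and 0.20, and none passed the test.

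For Il1rl1 the spread within a genotype was larger than the difference between genotypes. The WT mean was 8.55 ± 3.95 and the Tln1ΔMC mean 8.88 ± 1.51 per 10000 (SD, n = 3 each). WT mouse 1 was the highest of all 6 mice and WT mice 2 and 3 were the lowest, and the Tln1ΔMC mice lay between them. The libraries of WT mouse 1 ran from 11.6 to 15.7 and those of WT mice 2 and 3 from 4.10 to 9.30, without overlap. The background in unused cell barcodes, which libraries processed together may share, joined WT mouse 1 with Tln1ΔMC mouse 1, and WT mice 2 and 3 with Tln1ΔMC mouse 2, and set Tln1ΔMC mouse 3 apart. Correlations of this background between libraries were at least 0.906 within these sets and at most 0.211 between them. In the first set Il1rl1 was lower in the Tln1ΔMC mouse by -0.59 on the log2 scale of levels, and in the second higher by 0.74, so that the direction was opposite. With the set as a block in the fit, the log2 fold change of Il1rl1 was 0.25 ± 0.27 (adjusted p = 0.810, limma).

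**Figure D4:**
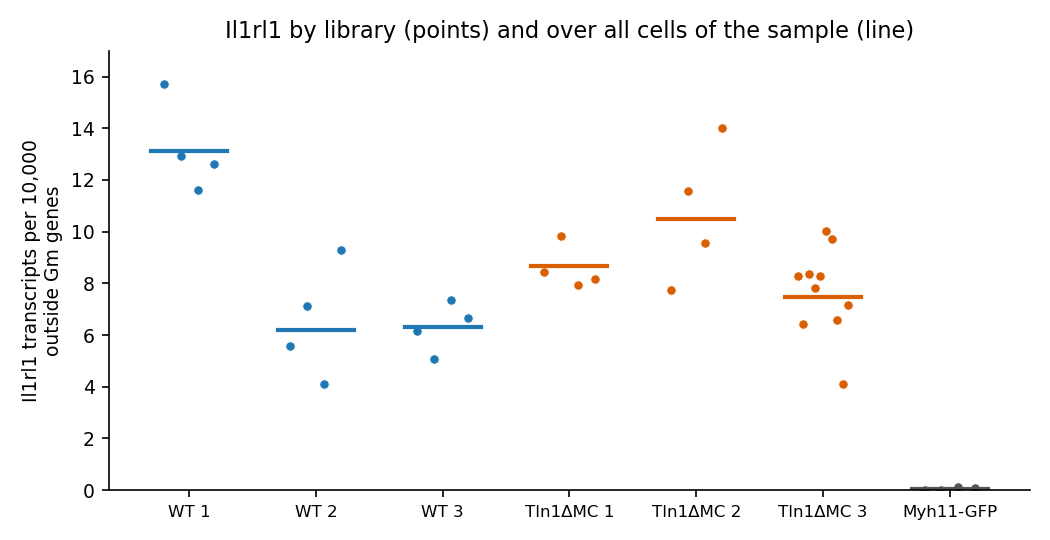
Il1rl1 transcripts per 10000 outside Gm genes in each library (points) and over all cells of each mouse or of the pooled Myh11-GFP cells (lines). The 4 libraries of WT mouse 1 lie between 11.6 and 15.7, and those of the other MC mice between 4.10 and 14.

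The other tested members gave overlapping genotypes as well. Il1rap was at 0.821, 0.681 and 0.601 in WT and 0.603, 0.612 and 0.568 in Tln1ΔMC mice (-0.19 ± 0.20). Il10rb was at 1.28, 1.30 and 1.14 in WT and 1.23, 1.15 and 1.47 in Tln1ΔMC mice (0.07 ± 0.18), and Crlf2 at 0.589, 0.742 and 0.629 and 0.820, 0.536 and 0.778 (0.14 ± 0.22). Il7r was lowest in Tln1ΔMC mouse 3, where its 10 libraries had a median of 0.701, while the other 5 mice lay between 1.10 and 1.27. That mouse was also the one set apart by its background, so that mouse and set cannot be told apart. Without it the log2 fold change of Il7r was 0.09 in place of -0.16. None of the 7 had levels without overlap between genotypes, which 11.7% of all tested genes had.

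Il18r1, Il18rap and Il13ra1 fell below the filter and were not tested with limma. Il18r1 had 1 transcript in WT mouse 1 and 0 in WT mice 2 and 3, against 3, 5 and 28 transcripts in Tln1ΔMC mice 1, 2 and 3. The levels were 0.0116, 0 and 0 in WT and 0.0385, 0.0425 and 0.0535 in Tln1ΔMC mice, which did not overlap. Levels without overlap were found for 11.7% of the tested genes, and their share among genes below the filter was not counted. Over all cells Il18r1 had 36 against 1 transcripts, a ratio of 13.6 (95% interval 2.29 to 551, counting error only, with 8.01 of the 36 from 1 cell). Of these 36, 28 came from Tln1ΔMC mouse 3, the deepest mouse and the one set apart by its background. An exact two-sided permutation test over the mice gave p = 0.1, the smallest that 3 against 3 mice allow. The 37 transcripts lay in 28 cells, and without the cells rich in other markers the Tln1ΔMC levels were 0.0389, 0.0428 and 0.0421. Myh11-GFP cells had 2 transcripts, a level of 0.0140 (0.00170 to 0.0506), within which the levels of 2 Tln1ΔMC mice also lay. The limit that 3 transcripts set over the 3 WT mice was 0.0111 per 10000. Il18rap had 8 transcripts in all MCs, with 3 in WT and 5 in Tln1ΔMC mice.

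To see whether receptors move with the state of the cell, the MCs of each mouse were divided by genes outside the members, and both classes were compared within mice. In the first division, the 1165 MCs with a transcript of Il13 or Il6 were compared with the 1303 without. Here 158 of 8025 genes (1.97%) passed an adjusted p of 0.05, 57 of them higher in the cells with a cytokine transcript, and of the 7 tested members 1 passed, Il10ra. Its level was 3.08, 1.81 and 2.16 in the cells with and 1.93, 1.60 and 1.23 in the cells without a cytokine transcript of WT mice 1, 2 and 3. In Tln1ΔMC mice 1, 2 and 3 it was 2.82, 2.52 and 2.07 against 2.08, 1.67 and 1.78. Thus Il10ra, the ligand-binding chain for IL-10, was higher in cytokine-positive cells in 6 of 6 mice, with a log2 fold change of 0.48 ± 0.11 (SE, adjusted p = 0.0311, limma with the mouse as a term). Leaving out WT mouse 1, WT mouse 3, Tln1ΔMC mouse 1 or Tln1ΔMC mouse 2 ended the call (adjusted p = 0.0968, 0.0963, 0.0637 and 0.132), with values between 0.43 and 0.49. Cells with a cytokine transcript were deeper, with medians of 2462 to 5231 transcripts outside Gm genes by mouse against 1363 to 4223, and their share of Gm transcripts was lower (11.8 to 48.2% against 18.8 to 66.8%). Fibroblast markers were at 45.3 to 140 per 10000 in the cells with and 7.51 to 11.0 in the cells without a cytokine transcript of WT mice, and at 1.15 to 2.77 and 1.36 to 20.2 in Tln1ΔMC mice. The part of depth and of these markers in the result was not tested.

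The second division was by immediate early genes (Fos, Fosb, Jun, Junb, Jund, Egr1, Ier2, Dusp1, Atf3, Btg2 and Zfp36), which rise within minutes of activation or tissue dissociation, at the median of their summed level in each mouse. Of 8084 genes, 407 passed (5.03%), 244 of them higher in the high class, but none of the 7 members tested did. The members with the smallest p were Il7r and Il10ra. Il7r was lower in the high class in 6 of 6 mice, at 0.909, 0.884 and 1.05 against 1.32, 1.51 and 1.14 in WT mice and 0.953, 1.12 and 0.535 against 1.39, 1.27 and 0.881 in Tln1ΔMC mice. Its log2 fold change was -0.43 ± 0.13 (adjusted p = 0.0612, limma), and it passed the test without WT mouse 3 (-0.51, adjusted p = 0.0424) and without the 4 MCs of over 50000 transcripts (-0.52, adjusted p = 0.0232). It passed in only these 2 of 10 alternatives, with an adjusted p of up to 0.168 (limma) in the rest. The limit of 50000 was set after the data were seen. Il10ra was higher in 6 of 6 mice (0.33 ± 0.10, adjusted p = 0.0654). Il1rl1 had a value of 0.21 ± 0.09 (adjusted p = 0.227) and was higher in 4 of 6 mice. Median depth ran from 1647 to 4468 transcripts outside Gm genes by mouse in the high and from 1722 to 5164 in the low classes, and differed within mice in both directions (2336 against 1722 in WT mouse 1, 2280 against 3642 in WT mouse 2). Fibroblast markers were at 1.80 to 9.10 per 10000 in the high and 0.792 to 137 in the low classes, lower in the high class in 5 of 6 mice. The part of depth and of these markers in these values was not tested.

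**Figure D5:**
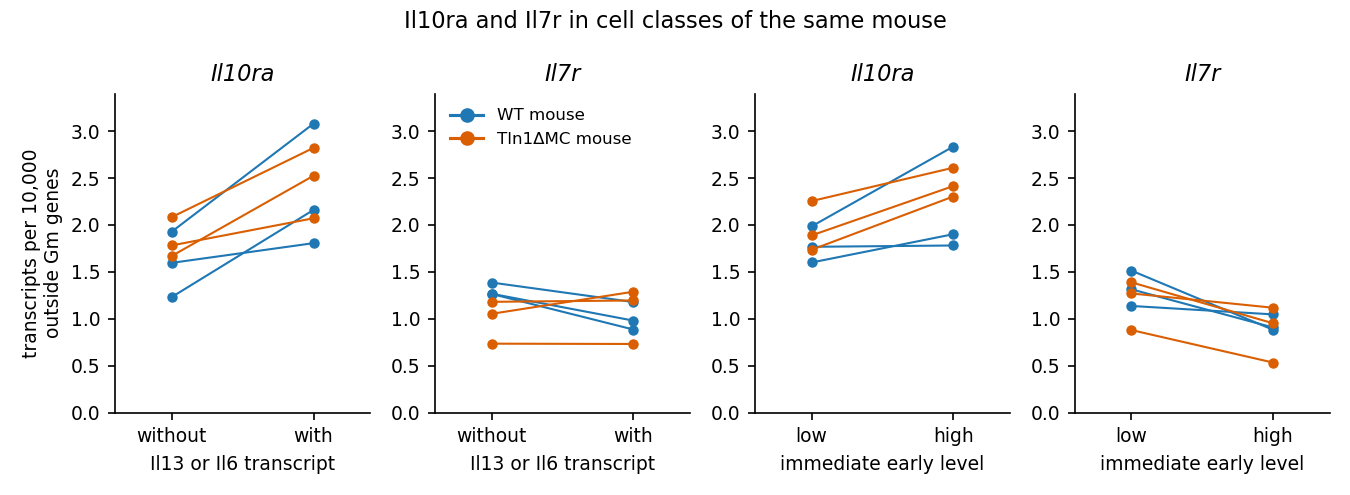
Levels of Il10ra and Il7r per 10000 transcripts outside Gm genes in both classes of cells of each mouse (lines join the classes of 1 mouse). Il10ra is higher in cells with an Il13 or Il6 transcript and in immediate-early-high cells of all 6 mice, and Il7r is lower in immediate-early-high cells of all 6.

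The further genes of these pathways gave the setting of the members. Of 16 related receptors, all were listed, 7 were tested between genotypes and none passed. Il2rg, the common gamma chain that partners Il4ra and Il7r, was the highest at 5.89 ± 0.767 per 10000 in MCs and at 0.0421 in Myh11-GFP cells. Il17ra (3.19 ± 0.581) and Il6ra (1.85 ± 0.357) followed. Il17ra fell in the immediate-early-high class by 0.57 on the log2 scale (adjusted p = 0.00123, limma), as did Il1r2, a decoy receptor for IL-1 (-2.13, adjusted p = 0.0353), whose level was 1.08 in WT mouse 2 and at most 0.228 in the other 5 mice. In the MyD88 branch that serves ST2, Irak1 (3.36 ± 0.968), Tab2 (3.12 ± 0.407) and Tollip (1.96 ± 0.247) were the highest, and none passed of the 9 genes tested between genotypes and in the immediate early division or of the 8 tested in the Il13 or Il6 division. Of the 13 tested genes of the JAK-STAT branch none passed between genotypes. Socs2 (14.6 ± 3.58), a feedback inhibitor, was the highest of that list, ahead of Jak1 (3.98 ± 0.551) and Cish (2.82 ± 0.298). Socs2 rose in the immediate-early-high class (0.36, adjusted p = 0.0119) and Jak2 fell (-0.56, adjusted p = 0.0197). Among 12 genes for ligands, Il13, Il4 (0.743 ± 0.350) and Il1b (0.366 ± 0.260) were the highest in MCs, and of the 3 tested between genotypes none passed. Il4 and Il13 rose in the immediate-early-high class (1.99, adjusted p = 8.0e-05, and 1.34, adjusted p = 0.000603).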

How the data were processed

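Ear skin was digested enzymatically, and single cells were sorted into plates and sequenced by mCEL-Seq2. The authors demultiplexed reads with bcl2fastq 2.17.1.14, mapped them with bwa 0.6.2-r126 to a mouse transcriptome on the mm10 build, kept sense reads of a single locus, merged loci overlapping by more than 75% and turned counts of 6-base UMIs into transcript numbers by binomial statistics. What the authors deposited is 1 table per library (34 tables) of these corrected transcript numbers by gene and barcode, with no further normalization and no other unit.

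Barcodes with over 1000 transcripts and at most 2% Kcnq1ot1 were kept. Of 2807 barcodes over 1000, 17 lay in the set of 96 barcodes not in use in their library and were left out. All other barcodes over 1000 were kept and counted as cells. Tln1ΔMC mouse 3 kept 929 barcodes, more than the number of sorted cells given for its libraries. By that number, some barcodes counted as MCs of this mouse are not sorted cells, and they were not identified. Doublets had been excluded at the sort, and no doublet caller was run. Genes named Gm plus a number were left out of totals. Cells of different mice were kept apart by the number in the sample labels, read as the mouse, and libraries were summed by mouse. Genotypes (3 against 3 mice) and classes of cells within mice were compared with limma 3.58.1 (R 4.3.3) with trend on log2(transcripts per 1000000 + 1), scaled by the trimmed mean of M values, for genes that reached 10 transcripts in 3 or more sums, with Benjamini-Hochberg adjustment over all genes and a threshold of 0.05. This test replaced a planned count test because the deposited, corrected values are not counts. Whole UMIs could be recovered from them and were used with limma as an alternative between genotypes, but the count test was not run on them. It was tried on simulated counts with a fixed dispersion of 0.02 and no background sets. Between genotypes it found 3.12% of 1.5-fold, 61.3% of 2-fold and 95.7% of 4-fold changes, with 0, 5 and 6 false calls. In the immediate early division it found 17.6%, 71.9% and 98.9%, with 0, 3 and 7 false calls. Levels of Myh11-GFP cells have exact 95% Poisson intervals and shares exact binomial ones, which cover counting error only. P-values measure the spread between these mice.

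The members and all gene lists were chosen with earlier results of these data known. All 10 members are named, and of each further list the 3 genes with the highest MC level, besides those that passed a test. Python 3.11.15 was used for the other steps.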

Additional observations from a re-analysis of the deposited data

Results flagged for a closer look

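Among the 10 libraries of Tln1ΔMC mouse 3, library 8 stood apart for a pair of members. Its Il13ra1 level was 0.640 per 10000, and the next was 0.0530. Its Il10ra level was 0.943, and the next lowest was 1.86. Without its 2 cells of over 50000 transcripts outside Gm genes, which left 91 of 93 cells, Il13ra1 was at 0 and Il10ra at 1.95, and Il1rl1 moved from 4.11 to 8.51. Dixon's test was made in 50 groups of libraries with 2 flags, and chance flags about 1 in 20 groups.

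The difference between Tln1ΔMC and WT MCs had opposite signs in the pair of background sets that hold both genotypes for 3 members. The second set minus the first was 1.33 on the log2 scale for Il1rl1 (-0.59 and 0.74), 0.31 for Il10ra (-0.00 and 0.31) and -0.83 for Crlf2 (0.48 and -0.35). With 1 mouse against 1 and 1 against 2, these differences were not tested.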

How the results depend on the processing

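The counts of members above (7) and below (1) the Myh11-GFP level kept their values under all 19 alternatives run. No member passed between genotypes under any alternative. The genes called between genotypes numbered 0 except with the background set as a block, where 4 were called (Cbr2, Cd9, Cilp and Timp3, all lower in Tln1ΔMC MCs), and with 1 mouse left out, where they ranged from 0 to 12 (1 without WT mouse 1 and 12 without Tln1ΔMC mouse 1). With the mouse number as a block, 0 genes and 0 members were called. Same-numbered mice did not deviate together (r = 0.16, -0.23 and -0.27). Mice numbered 1 shared a background set, as did mice numbered 2, but mice numbered 3 did not. Il7r between genotypes turned to 0.13 with the background set as a block, and ranged from -0.32 to 0.095 with 1 mouse left out. In the immediate early division Il1rap turned to 0.017 between cells at the upper and lower end of the immediate early level, and with 1 mouse left out ranged from -0.14 to 0.068, and Crlf2 from -0.20 to 0.063. There, 1 member (Il7r) was called without cells of over 50000 transcripts and 0 to 1 with 1 mouse left out. In the Il13 or Il6 division, leaving out 1 mouse gave 49 to 166 genes (85 without WT mouse 1, 89 without WT mouse 3 and 49 without Tln1ΔMC mouse 2) and 0 to 1 members. The adjusted p of Il10ra there ran from 0.0032 to 0.132 over 9 alternatives, and that of Il7r in the immediate early division from 0.0232 to 0.168 over 10. The causes were not tested. Per 10000 of all transcripts, Gm genes included, the mean MC level of Il1rl1 was 4.78. The alternatives with unused barcodes kept, without the deepest cells and with a pseudocount of 5 were chosen after seeing the data, and the planned count tests were not run. The 3 mice per genotype and levels near 1 transcript per 10000 limit what could be seen, most of all for Il18r1 and Il18rap.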

Other observations

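Other genes of these families had high levels on the Myh11-GFP side, and were chosen after their values were seen. Tslp, the ligand of Crlf2 and Il7r, was at 0.926 per 10000 in Myh11-GFP cells and 0.0204 ± 0.0189 in MCs (SD, n = 6). Il6st, the shared chain of the IL-6 family receptors, was at 5.86 against 0.255 ± 0.0757, and Osmr, which pairs with it, at 3.58 against 0.0679 ± 0.0237. Il1r1, the signalling receptor for IL-1, was at 2.66 against 0.0545 ± 0.0141. Il13ra2, a decoy receptor for IL-13, was at 0.203 against 0.00347 ± 0.00680. Each of these 5 genes was lower in all 6 MC mice than in the pooled Myh11-GFP cells, which are 1 sample, so that no test was made. Because they were chosen for high Myh11-GFP levels, this count follows from the choice. Of the 9138 genes with enough transcripts, 24.8% were also lower in all 6 mice.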
